A study of Mus musculus with 2 samples.

Results

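The mitochondrially encoded genes are the 37 annotated genes whose symbol begins with mt-, out of 55536 gene rows in the tables. They are 13 mRNA genes, 2 rRNA genes and 22 tRNA genes, and all of them were found. The series measured polyadenylated RNA of macrophages that had been derived in culture from the bone marrow of C57BL/6J mice. Its 1 group holds 2 libraries, biological replicates 1 and 2 in the labels, from cells given 100 ng/mL of a stimulus for 300 min. The labels call that stimulus Lipid A in one field and lipoprotein A, a protein, in another, and the sex and age of the mice were not collected. The libraries are separate biosamples under a single donor record, and the labels do not say whether the cultures were separate. No unstimulated library was analysed, so the values are levels after the stimulus and spreads between the libraries, with no test of a response.

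Mitochondrial DNA encodes core subunits of the respiratory chain and ATP synthase, and the rRNAs and tRNAs that translate them inside the organelle. Both strands are transcribed into long precursors, which are cut, mostly at the tRNAs, into mRNAs and rRNAs that receive short poly(A) tails. Fragments of mitochondrial DNA have also been inserted into nuclear chromosomes during evolution, and their sequence can be close to that of the mitochondrial genes. In macrophages activated through Toll-like receptors, the respiratory chain is known to be repurposed while glycolysis takes over much of ATP production.

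Expected counts, the estimated reads per gene, summed to 38078399 in replicate 1 and 63705317 in replicate 2. All 8 macrophage markers stood at 1 TPM or more (a level per base of transcript, set to the same sum in each library) in both libraries, and no B cell, erythroid or fibroblast marker did. Of the T cell markers 1 did, Cd4, at 44.8 TPM in replicate 1 and 79.9 in replicate 2. The libraries differed in markers of several types. The 8 macrophage markers had a median log2 ratio of -0.29 of replicate 1 over replicate 2, and 2 of them passed 1.5-fold lower in replicate 1, Cd68 (2496 and 5400 TPM) and Csf1r (279 and 665 TPM). The 7 neutrophil markers summed to 507.5 TPM (replicate 1) and 18.7 TPM (replicate 2), and the 3 platelet markers to 766 and 107 TPM. Pf4 alone made up nearly all of the platelet sum, at 752.97 TPM in replicate 1 and 104.81 TPM in replicate 2. Ppbp had 11.82 and 1.68 TPM, and Itga2b 1.35 and 0.09 TPM. The highest neutrophil marker was S100a9, at 316 and 10.2 TPM. The authors quantified each library with 2 methods. The first has the column layout of RSEM and the second that of kallisto, and both divide reads that match several genes among those genes.

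Sequence identity matters for the levels below, since 7 of the 13 mRNA genes have an almost identical annotated copy on chromosome 1. The copies lie in 1 segment of 4663 bases, chr1:24611535-24616197 on the minus strand of mm10, which corresponds to chrM:6390-11042. Against the mitochondrial transcript, 5 of the 7 copies had no differing base over the aligned part. They are Gm28661 (copy of mt-Co2, 681 aligned bases), Gm10925 (mt-Atp6, 678), Gm28437 (mt-Co3, 783), Gm10222 (mt-Nd4l, 294) and Gm28439 (the first 876 bases of mt-Nd4). Gm29216, a copy of the last 483 bases of mt-Co1, and Gm28438, a copy of 345 bases of mt-Nd3, each had 1 differing base. With positions counted from 1 at the 5′ end of the mitochondrial gene, these were A1066T for mt-Co1 and T3C for mt-Nd3. The difference within the alignment is in capitals in the stretches below, from the GENCODE M21 transcripts on mm10. The first 9 bases of Gm29216 lie outside the alignment. They differ from mt-Co1 at several more bases, which are left in lower case and not counted.
mt-Co1, chrM:6381-6407, plus strand: ggtctaaccggaAttgttttatccaac
Gm29216, chr1:24616171-24616197, minus strand: ggattggcaggaTttgttttatccaac
mt-Nd3, chrM:9459-9475, plus strand: atTaacctgtacactgt
Gm28438, chr1:24613103-24613119, minus strand: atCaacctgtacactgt
For the 5 pairs with no difference, the only bases that separate the transcripts are those past the end of the annotated copy. The end of mt-Co2 shows this, with its stop codon, which the annotated copy lacks, in capitals.
mt-Co2, chrM:7667-7696, plus strand: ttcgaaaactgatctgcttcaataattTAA
Gm28661, chr1:24614885-24614911, minus strand: ttcgaaaactgatctgcttcaataatt

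The mitochondrial genes held a larger share of TPM than of counts in both libraries. They held 2.45% of all expected counts in replicate 1 and 3.35% in replicate 2, a mean of 2.90% ± 0.641 (SD, n = 2). The exact 95% binomial intervals, which cover counting error only, were 2.44% to 2.45% in replicate 1 and 3.35% to 3.36% in replicate 2, far narrower than the spread between the libraries. In TPM, which divides reads by length, the share was 8.57% in replicate 1 and 9.42% in replicate 2, a mean of 9.00% ± 0.602 (SD, n = 2). When mt-Atp8 and the tRNA genes were left out of the numerator and the total, the TPM share was 4.89% ± 0.947 (SD, n = 2). When the reads of the nuclear copies were added, the genes and copies together held 3.50% of counts in replicate 1 and 4.43% in replicate 2. That sum varied little with the method, at 3.39% and 4.34% of counts in the second quantification.

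Of the 37 genes, 14 reached 1 TPM in both libraries, against 18.0% of all gene rows, and 11 reached 1000 TPM in both, against 0.185% of all gene rows. The 14 are all mRNA and rRNA genes other than mt-Co3. The median of the 15 mRNA and rRNA genes was 2206 TPM (replicate 1) and 3634 TPM (replicate 2). The nuclear protein-coding genes at 1 TPM or more had a median of 13.7 TPM in replicate 1 (9817 genes) and 13.8 TPM in replicate 2 (9512 genes). In the ranking of all genes by TPM of the first quantification, mt-Atp8 was at 1 in both libraries, and mt-Co1 at 5 in replicate 1 and 4 in replicate 2. In the second quantification mt-Atp8 was at 6 in replicate 1 and 4 in replicate 2, and mt-Co1 at 4 and 5.

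**Figure D1:**
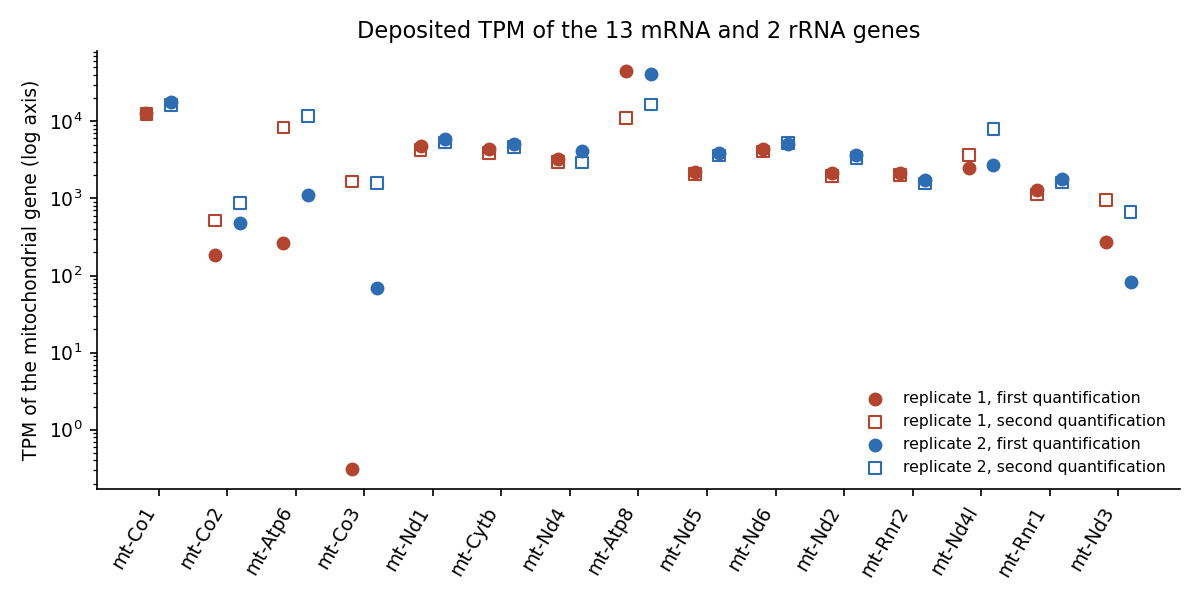
Deposited TPM (log axis) of the 13 mRNA and 2 rRNA genes in replicate 1 (red) and replicate 2 (blue), in the first quantification (filled circles) and the second (open squares). Circles and squares lie close together for genes with no nuclear copy that holds reads, other than mt-Atp8, and apart for mt-Co3, mt-Atp6, mt-Co2 and mt-Nd3, with mt-Co3 lowest at 0.31 TPM in replicate 1.

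How the reads of a gene and its copy were divided decided the level that the tables give to several members. Over all pairs, the 21 annotated nuclear copies took 30.1% of the reads of genes and copies in replicate 1 and 24.3% in replicate 2. In the second quantification they took 18.5% in replicate 1 and 16.1% in replicate 2. The 7 copies in the chromosome 1 segment held all but 38.1 of the copies' expected counts in replicate 1 and all but 120 in replicate 2.

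mt-Co3, which encodes a subunit of cytochrome c oxidase, is the extreme. It was given 3.93 expected counts and 0.31 TPM in replicate 1, and 1510 expected counts and 68.2 TPM in replicate 2, while its copy Gm28437 was given 124931 and 146392. The second quantification left mt-Co3 25063 reads (1662 TPM) in replicate 1 and 38482 reads (1581 TPM) in replicate 2. The sums of gene and copy were close between the methods, at 124935 and 147902 counts in the first and 128626 and 151185 in the second. The deposited table also holds a posterior mean of TPM with a credibility interval. For mt-Co3 that mean was 2769 TPM (2025 to 3406) in replicate 1 and 2085 TPM (1666 to 2469) in replicate 2. The deposited TPM lay outside its interval for 13 of the 15 genes in each library, so that alone does not set mt-Co3 apart. What differed was the size, since for mt-Co3 the posterior mean was 8934 times the TPM in replicate 1 and 30.6 times in replicate 2. For the 8 genes with no expected counts at a copy the posterior mean was 0.963 to 0.976 times the TPM, and all 8 also lay outside the interval in both libraries.

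mt-Co2 and mt-Atp6 also stood low in the first quantification. mt-Co2 kept 1.29% of the reads of gene and copy in replicate 1 and 3.14% in replicate 2, and Gm28661 held the rest. The second quantification was similar for mt-Co2, with 4.28% in replicate 1 and 6.09% in replicate 2. mt-Atp6 kept 2.75% in replicate 1 and 9.31% in replicate 2 in the first quantification, against 99.8% and 100% in the second. The methods thus assigned nearly all reads of this pair to opposite members.

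For the remaining 4 pairs the division varied with the method, the library or both. mt-Co1 kept 95.2% in replicate 1 and 98.6% in replicate 2, and Gm29216 corresponds to only part of its length. mt-Nd4 kept 99.99% in replicate 1 and 83.1% in replicate 2. The second quantification left it 100% in replicate 1 and 64.2% in replicate 2. mt-Nd4l kept 41.7% and 40.8% in the first quantification and all reads in the second. mt-Nd3 kept 5.01% and 3.99% in the first and 28.6% and 35.0% in the second. No order of the libraries in these shares held for all 7 pairs. Whether any of these reads came from the chromosome 1 segment was not tested, and for the 5 pairs with no differing base a read from inside the shared part cannot be told apart.

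**Figure D2:**
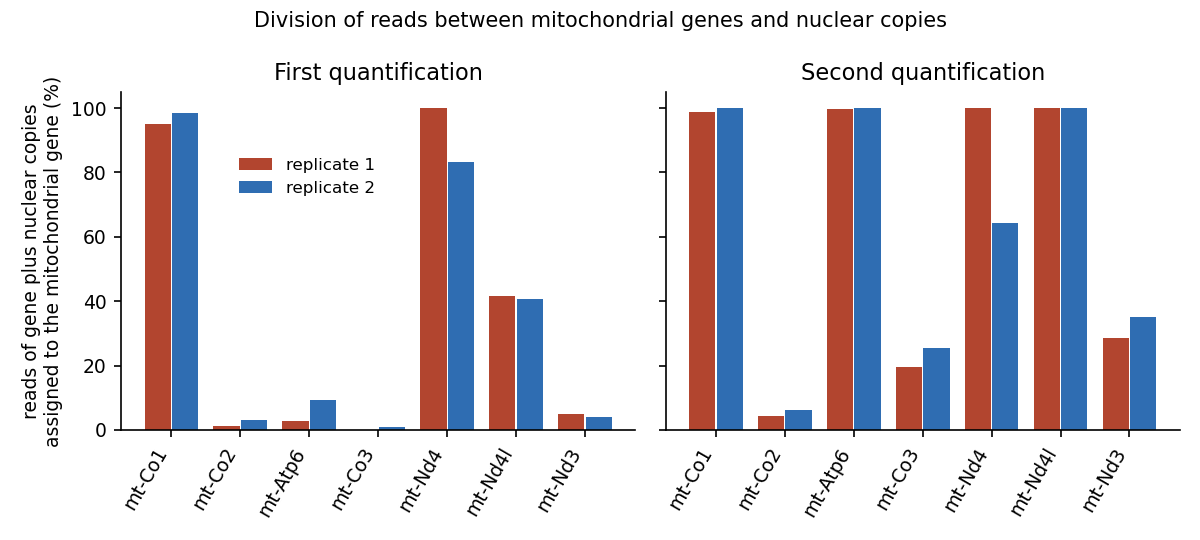
Percent of the reads of each mitochondrial gene and its annotated nuclear copies that was assigned to the mitochondrial gene, in replicate 1 (red) and replicate 2 (blue), for the 7 genes with a copy on chromosome 1. In the first quantification (left) mt-Co2, mt-Atp6, mt-Co3 and mt-Nd3 stand under 10% in both libraries; in the second (right) mt-Atp6 stands at 100% in replicate 2 and mt-Co2 stays under 10%.

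Summed over gene and copies, the first quantification gave 0.816 to 0.979 times the counts of the second in replicate 1 and 0.675 to 0.987 times in replicate 2, lowest for mt-Nd4l in both. The levels below are those of each gene plus its nuclear copies, in expected counts per kilobase of annotated length and scaled to the library total (RPKM over annotated length). This sum was chosen after the single values had been seen. Across the 15 genes, the ranks of these levels had a Spearman correlation between the methods of 1.00 in replicate 1 and 0.996 in replicate 2. For the TPM of the genes alone it was 0.768 in replicate 1 and 0.725 in replicate 2. These are correlations across 15 genes of the same reads and carry no test. The levels compared differ in the copies and in the length. RPKM divides both methods by the same annotated length, and TPM by each method's own effective length (explained below). The gap between the correlations thus cannot be credited to the copies alone.

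The 3 mitochondrially encoded subunits of cytochrome c oxidase (complex IV), the enzyme that passes electrons to oxygen, were among the 4 highest of the 15 genes. mt-Co1, the catalytic subunit, had an RPKM of 7173 in replicate 1 and 9692 in replicate 2 with its copies. mt-Co2, which accepts electrons from cytochrome c, had 5615 and 6422, and mt-Co3 had 4190 and 2964. mt-Co1 stood above mt-Co2 with no overlap between their libraries, and mt-Co2 above all members that follow. The 3 genes and their copies took 52.0% of the reads of mitochondrial genes and copies in replicate 1 and 48.9% in replicate 2. Taken from the deposited TPM of the genes alone, the complex IV share was 17.1% ± 3.02 (SD, n = 2). That share differs from the share of reads in the copies and in the measure. mt-Atp8 alone held 53.0% of that TPM in replicate 1 and 43.4% in replicate 2. The gap thus cannot be credited to the copies alone.

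Of the ATP synthase genes, mt-Atp6, which forms part of the proton channel, ranked between mt-Co2 and mt-Co3 by its mean, with 3740 RPKM in replicate 1 and 4988 in replicate 2, overlapping mt-Co3. mt-Atp8, a small membrane subunit, had 1770 and 2049. Both together took 8.31% of reads in replicate 1 and 8.60% in replicate 2. mt-Cytb, the mitochondrially encoded subunit of complex III (cytochrome bc1), had an RPKM of 2153 in replicate 1 and 2616 in replicate 2.

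Per annotated length, the 7 mitochondrial genes of complex I, the NADH dehydrogenase, ran from mt-Nd1 at the top to mt-Nd3 at the bottom. mt-Nd1, a core membrane subunit, had an RPKM of 2216 in replicate 1 and 2798 in replicate 2. mt-Nd4, one of the proton-pumping subunits, had 1684 and 2634 with its copy. mt-Nd5, another pumping subunit, had 1231 and 2196, and mt-Nd2, also of this kind, had 1027 and 1793. mt-Nd6, the only mRNA on the light strand, had 1354 in replicate 1 and 1719 in replicate 2. The lowest complex I members were mt-Nd4l, with 745 and 1028, and mt-Nd3, with 947 in replicate 1 and 432 in replicate 2. The place of mt-Nd4l depended on the length used, since TPM divides by effective length. In TPM with copies, it was the highest of these 7 genes, at 6017 in replicate 1 and 6854 in replicate 2. mt-Nd1 had 4748 and 5826 TPM, and mt-Nd3 with its copy 5483 and 2119. In the second quantification, with copies, mt-Nd4l passed mt-Nd1 only in replicate 2, at 3678 and 7887 TPM against 4221 and 5327. In RPKM, from mt-Nd1 down to mt-Nd3, each gene overlapped the next in order between its libraries. The only gaps in the whole order lay between mt-Co1 and mt-Co2, between mt-Co2 and mt-Atp6, and between mt-Co3 and mt-Nd1. Complex I genes with copies took 25.7% of reads in replicate 1 and 30.5% in replicate 2.

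**Figure D3:**
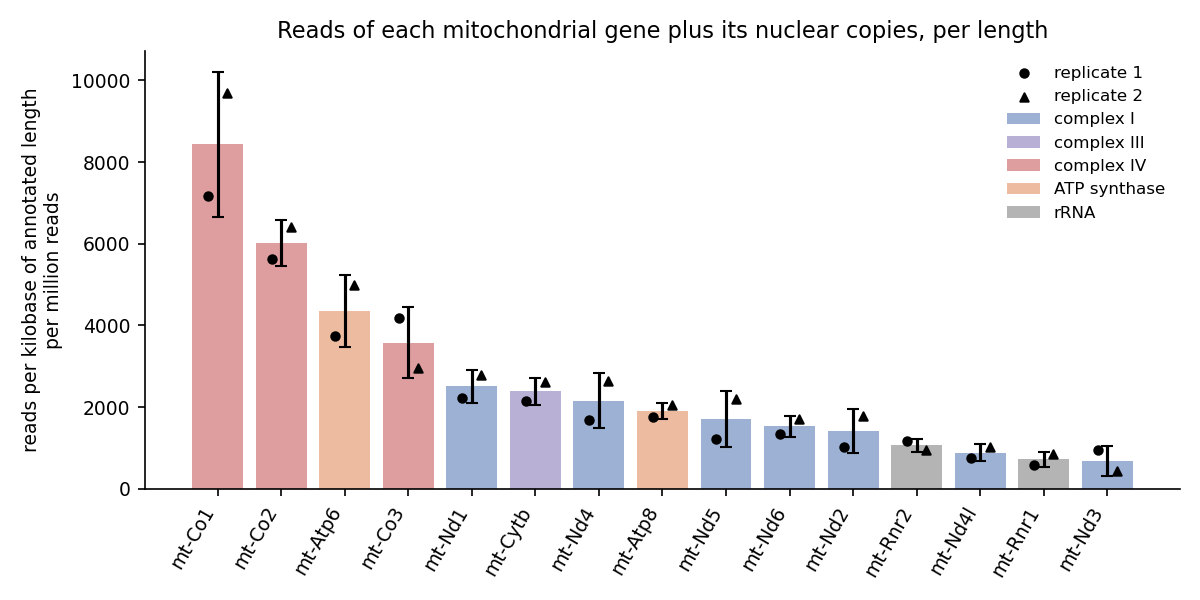
Expected counts of each mitochondrial gene plus its nuclear copies per kilobase of annotated length, scaled to the library total (RPKM), from highest to lowest. Bars are means of the 2 libraries with SD, circles are replicate 1 and triangles replicate 2, and colours give the complex; the 3 complex IV genes and mt-Atp6 stand above the other 11 in both libraries.

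Both rRNA genes stood among the lower members, at 12 (mt-Rnr2) and 14 (mt-Rnr1) in the order of the 15. Only polyadenylated RNA was measured, so the levels here do not give the amount of rRNA relative to mRNA in the cells. mt-Rnr1, the rRNA of the small ribosomal subunit, had 1275 TPM (replicate 1) and 1761 TPM (replicate 2). mt-Rnr2, that of the large subunit, had 2166 and 1741 TPM. The log2 ratio of mt-Rnr2 over mt-Rnr1 in TPM was 0.76 in replicate 1 and -0.02 in replicate 2, a mean of 0.37 ± 0.55 (SD, n = 2), so in TPM the libraries gave no common order. Per annotated length it was above 0 in both, at 0.98 in replicate 1 and 0.17 in replicate 2, with an RPKM of 1175 and 951 for mt-Rnr2 and of 595 and 845 for mt-Rnr1. There were 7.45 rRNA reads per 100 mRNA reads in replicate 1 and 5.50 in replicate 2, nuclear copies included.

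mt-Atp8 headed the TPM ranking of the first quantification from few reads. It had 13732 expected counts in replicate 1 and 26607 in replicate 2, which became 45460 TPM and 40928 TPM. That was 53.0% of the TPM of all mitochondrial genes in replicate 1 and 43.4% in replicate 2, from 1.47% and 1.25% of their counts. Each 1000 reads gave mt-Atp8 3311 TPM (replicate 1) and 1538 TPM (replicate 2), against 31.5 and 18.7 TPM for mt-Co1. The factor is the effective length, the number of positions at which a fragment can start. For the 204 bases of mt-Atp8 it was 12.1 in replicate 1 and 15.8 in replicate 2 in the first quantification, and 46.6 and 35.3 in the second. The second quantification, with 14293 reads in replicate 1 and 28003 in replicate 2, gave 11118 TPM (replicate 1) and 16505 TPM (replicate 2). The 2 methods took different fragment lengths for the same libraries. The median of annotated minus effective length was 279 bases in replicate 1 and 246 in replicate 2 in the first quantification, but 238 and 278 in the second, the opposite order. The labels give a size range of 250 to 400.

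The bicistronic mRNAs offer a check of the length scaling, since mt-Atp8 and mt-Atp6 are read from a single transcript, as are mt-Nd4l and mt-Nd4. The genes overlap by 43 bases in the first pair and by 7 in the second. The whole of mt-Atp8 is shown because its length decides its TPM, with the overlap with mt-Atp6 in capitals, followed by the end of mt-Nd4l with its overlap with mt-Nd4 in capitals.
mt-Atp8, chrM:7766-7969, plus strand: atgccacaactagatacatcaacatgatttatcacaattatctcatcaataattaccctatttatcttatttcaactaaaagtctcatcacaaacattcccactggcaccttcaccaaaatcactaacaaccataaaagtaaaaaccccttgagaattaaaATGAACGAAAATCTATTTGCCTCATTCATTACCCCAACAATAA
mt-Nd4l, chrM:10144-10173, plus strand: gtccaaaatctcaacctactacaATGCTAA
In deposited TPM, the log2 ratio of mt-Atp8 over mt-Atp6 was 7.43 in replicate 1 and 5.19 in replicate 2. With the copies of mt-Atp6 added it was 2.23 and 1.75, and in the TPM of the second quantification 0.42 and 0.50. Per annotated length, with copies, it was -1.08 in replicate 1 and -1.28 in replicate 2. Per annotated length without copies it stayed positive, at 4.11 in replicate 1 and 2.14 in replicate 2. Its sign and its size thus depended on the length used and on the copy together. The log2 ratio of mt-Nd4l over mt-Nd4 was -0.38 in replicate 1 and -0.59 in replicate 2 in TPM, 0.91 and 0.28 with copies added, and 0.30 and 1.43 in the second quantification. Per annotated length, with copies, it was -1.18 in replicate 1 and -1.36 in replicate 2.

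**Figure D4:**
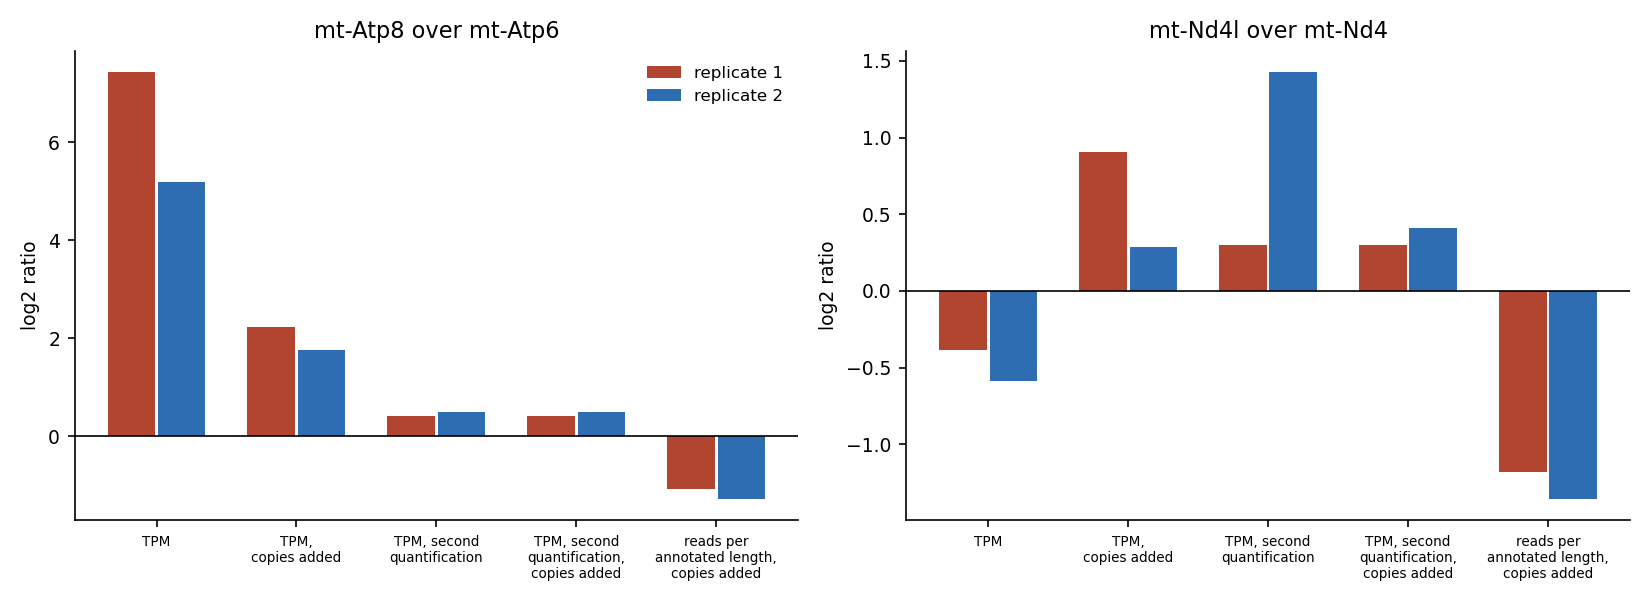
Log2 ratio of the 2 genes of each bicistronic mRNA in replicate 1 (red) and replicate 2 (blue) under 5 ways of computing the level. mt-Atp8 over mt-Atp6 (left) runs from 7.43 to -1.28, and both pairs are below 0 in both libraries when copies are added and reads are divided by annotated length.

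The ends of the mRNA genes show how the mitochondrial genome leaves part of the stop codon to the poly(A) tail. Of the 13 annotated coding sequences, 8 end in TAA and 2 in TAG, while 3 end in a lone T, which polyadenylation is known to complete to TAA. The last 30 bases of mt-Co1 and of these 3 genes are shown for comparison, with the encoded part of the stop codon in capitals.
mt-Co1, chrM:6843-6872, plus strand: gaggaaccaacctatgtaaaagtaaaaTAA
mt-Co3, chrM:9361-9390, plus strand: tatacgtctccatttattgatgaggatctT
mt-Nd4, chrM:11515-11544, plus strand: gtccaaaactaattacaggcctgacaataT
mt-Cytb, chrM:15259-15288, plus strand: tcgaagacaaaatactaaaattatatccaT
These 3 genes were not set apart by their level. With copies they came at 4 (mt-Co3), 6 (mt-Cytb) and 7 (mt-Nd4) in the order of the 15.

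mt-Nd6 differs from the other mRNAs in strand and base composition. Its coding strand held 28.1% G and 5.97% C, while the other 12 mRNAs held 5.88% to 16.1% G and 22.1% to 30.0% C. Its human counterpart is known to carry little or no poly(A) tail. Here mt-Nd6 made up 2.16% of mRNA reads in replicate 1 and 2.12% in replicate 2, copies included. It had 26719 expected counts (4356 TPM) in replicate 1 and 56783 (5031 TPM) in replicate 2. The labels and headers do not say if strand was used in counting, so reads of mt-Nd6 and of RNA from the opposite strand cannot be told apart.

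The tRNA genes, 59 to 75 bases long, are listed at 0 in the first quantification for all 22 genes in both libraries, with an effective length of 0. In the second quantification 14 of them had reads and 8 had none, and with them 23 of the 37 genes reached 1 TPM in both libraries, against 19.2% of all gene rows. Over such short effective lengths, very few reads pass 1 TPM. mt-Tm had 1.89 TPM from 1 read in replicate 1, and mt-Ts1 5.67 and 2.00 TPM from 3 reads in each library. Only 4 tRNA genes had 10 reads or more in both libraries. mt-Tp, the proline tRNA gene on the light strand, held most of the tRNA reads, with 1253 in replicate 1 and 2923 in replicate 2. It stood at 2486 TPM (replicate 1) and 2079 TPM (replicate 2), over effective lengths of 18.3 and 29.2 bases. Its sequence is printed because no other tRNA gene came near its count.
mt-Tp, chrM:15356-15422, minus strand: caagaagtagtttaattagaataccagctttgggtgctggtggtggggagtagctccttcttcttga
The other 21 tRNA genes together had 83 reads in replicate 1 and 150 in replicate 2. Among them mt-Tn (asparagine) had 16 in replicate 1 and 48 in replicate 2, mt-Tc (cysteine) 28 and 17, and mt-Te (glutamate) 14 and 29. As for mt-Nd6, reads of mt-Tp and of RNA from the opposite strand cannot be told apart without a stated strand.

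Between the libraries, most mitochondrial genes were lower in replicate 1. The ratio is the log2 of replicate 1 over replicate 2 in counts scaled by TMM, with 1 library on each side, so there is no test and a gene is called when it passes 1.5-fold. Of all 12226 genes with enough counts, 19.1% passed it higher in replicate 1 and 16.7% lower, and the median was 0.01. Of the 14 mitochondrial genes among them, 1 passed it higher (mt-Nd3) and 7 lower. mt-Co3 did not have enough counts in replicate 1. With copies added, 12 of 15 genes were below 0, 7 passed 1.5-fold lower and 1 higher, and the median of the 13 mRNAs was -0.53. Scaling by total counts moved the median of all genes to 0.19 and that of the mRNAs to -0.34, with the same 12 to 3 split around 0. Under that scaling the number past 1.5-fold lower was 3 (mt-Nd5, mt-Nd2 and mt-Nd4) in place of 7, and 1 was higher. The share of all genes past 1.5-fold was not taken under that scaling.

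With copies added, the lowest ratios were -1.02 for mt-Nd5, -0.99 for mt-Nd2 and -0.83 for mt-Nd4, all of complex I. Next came mt-Rnr1 at -0.69, mt-Nd4l at -0.65, mt-Co1 at -0.62 and mt-Atp6 at -0.60. Not past 1.5-fold were mt-Nd6 at -0.53, mt-Nd1 at -0.52, mt-Cytb at -0.46, mt-Atp8 at -0.39 and mt-Co2 at -0.38. Above 0 stood mt-Nd3 at 0.95, mt-Co3 at 0.32 and mt-Rnr2 at 0.12. mt-Nd3 had 12531 counts in replicate 1 and 9570 in replicate 2 with its copy, the reverse of the library sizes. In its neighbour mt-Nd4l the same sums were 8410 in replicate 1 and 19435 in replicate 2, so neighbouring mRNA genes of the same strand went opposite ways. In the second quantification the sums were 12805 in replicate 1 and 9953 in replicate 2 for mt-Nd3, and 10312 and 28795 for mt-Nd4l.

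The ratios also moved with base composition. Mitochondrial mRNA and rRNA genes have 31.9% to 41.1% GC, and the nuclear genes tested have a median of 49.7%. Across 12196 nuclear genes the Spearman correlation of GC content with the ratio was -0.335, a description over genes that share both libraries. The 984 nuclear genes at or below 41.1% GC had a median ratio of 0.74, higher in replicate 1, which is the opposite direction to most mitochondrial genes. With the trend in GC content and length removed, all 15 genes were below 0 with copies added, and the median of the mRNAs was -1.65. mt-Atp8, at 31.9% GC, lies under the lowest nuclear gene (32.2%), so its corrected value is extrapolated. mt-Nd3, at 33.0% GC, lies below 34%, where the bins with at least 20 nuclear genes begin. Its value with copies, 0.95 before and -0.46 after the trend was removed, thus rests on few nuclear genes of like GC content. The bin of 34% to 36% GC holds only 38 nuclear genes. mt-Nd6, mt-Rnr2, mt-Nd4, mt-Nd2, mt-Rnr1 and mt-Atp6 fall in that bin, so their corrected values carry a like limit. Among them mt-Rnr2 went from 0.12 to -1.04. Beside these ratios, neutrophil markers and platelet markers, the latter chiefly Pf4, were higher in replicate 1. The macrophage markers did not move together. Cd68 (log2 ratio -1.34), Csf1r (-0.63), Lyz2 (-0.57), Cd14 (-0.33) and Itgam (-0.24) were lower in replicate 1. Adgre1 (0.37), Fcgr1 (0.12) and Mertk (0.05) were higher. Cd4, the only T cell marker at 1 TPM or more, was lower. The part of these marker differences in the ratios was not tested. Fewer mitochondria, less RNA in each, a different mix of cells and technical differences between the libraries cannot be told apart in these bulk data.

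**Figure D5:**
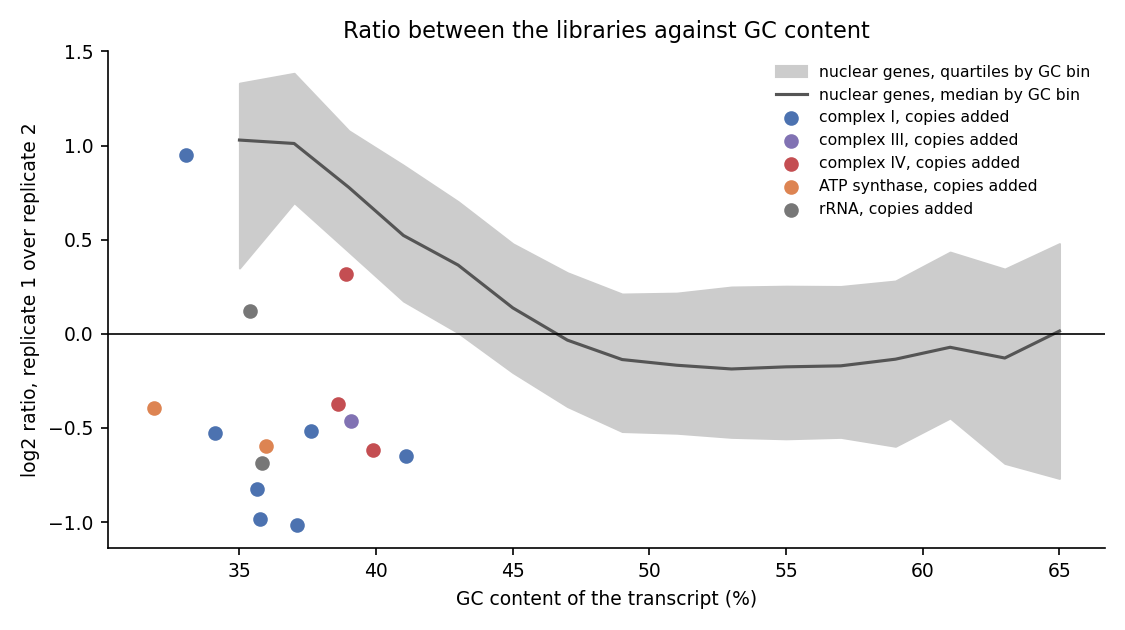
Log2 ratio of replicate 1 over replicate 2 in TMM-scaled counts against GC content of the transcript, for the 15 mitochondrial genes with copies added (coloured points) and for nuclear genes in bins of GC content (grey line, median; band, quartiles; bins of at least 20 genes). Nuclear genes of low GC content lie above 0, and 12 of the 15 mitochondrial genes lie below it.

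Nuclear genes supply all proteins that transcribe, cut and degrade mitochondrial RNA. Of 45 listed symbols 44 were matched, all but Mrpp1, which is not a gene symbol in the annotation used. Of these, 39 reached 1 TPM in both libraries, against 18.0% of all gene rows, but none reached 100 TPM in both. The highest were in the stability and decay group. Pnpt1, a polynucleotide phosphorylase of RNA decay, had 84.7 TPM (replicate 1) and 62.7 TPM (replicate 2). Rexo2, an oligoribonuclease, had 62.8 and 75.8 TPM. Slirp, which binds mRNAs together with Lrpprc, had 86.2 and 26.4 TPM, and Grsf1, of the RNA granules, had 29.2 and 39.1 TPM. All 4 were far below the median of the mitochondrial mRNA and rRNA genes in the same libraries.

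In the transcription and nucleoid group, Mterf2, a member of the mitochondrial termination factor family, was lowest, with 4 expected counts in replicate 1 and none in replicate 2. Under 1 TPM in both libraries were also Mterf1b of the same family (0.49 and 0.19 TPM), the helicase Twnk (0.45 and 0.41 TPM) and the topoisomerase Top1mt (0.86 and 0.79 TPM). The RNA polymerase Polrmt had 3.70 TPM (replicate 1) and 2.66 TPM (replicate 2), and the packaging and transcription factor Tfam 17.0 and 22.8 TPM. These last genes were picked for their roles after their values were seen. Of 42 factors with enough counts, 9 passed 1.5-fold higher in replicate 1 and none lower, with a median log2 ratio of 0.10, against a background of 19.1% higher and 16.7% lower.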

How the data were processed

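Polyadenylated RNA of 2 libraries was measured in 1 group. The authors deposited, per library, a gene table and a transcript table with the column layout of RSEM, and a transcript table with that of kallisto, on mm10 with GENCODE M21, per the deposited notes. For the aligner and the quantifiers, name and version: not given in the sources used here. Deposited expected counts (estimated counts, shared reads divided among genes) are not normalized. Deposited TPM is per effective length and scaled to a fixed total, and deposited FPKM entered 1 alternative. The score columns the authors deposited are bounds of a credibility interval of TPM. The deposited percent column gives a transcript's share of its gene, and each mitochondrial gene has 1 transcript. Rows of spike-ins and other non-genes held 0.132% of counts in replicate 1 and 0.0882% in replicate 2 and were left out of scaling and ratios.

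Nuclear copies are annotated genes off chromosome M with at least 80% of the transcript aligned at 80% identity or more (BLAST 2.17.0, E-value 1e-05, M21 transcripts). Ratios came from rounded counts, filterByExpr and TMM (edgeR 4.0.16, R 4.3.3) with a prior count of 2. The ratio steps were tested on simulated data with a linear GC bias and changed genes drawn at random. That run did not test the corrected ratios at the low GC content of the mitochondrial genes. A trend in GC content and length was fitted with mgcv 1.9.3, and DESeq2 1.42.0 size factors were an alternative. No p-value was made, since the group has 2 libraries and nothing to compare it with. Precision is set by the spread between the libraries.

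Members, gene lists and the rule for named genes were chosen with earlier results of these data known. The rule takes all mRNA and rRNA genes, tRNA genes with 10 reads in both libraries (in the second quantification, as the first has none), the 4 highest and the lowest factors and those under 1 TPM in both, and up to 6 nuclear copies with 100 counts. The seventh copy was named as well, since 7 qualified.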

Additional observations from a re-analysis of the deposited data

How the results depend on the processing

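No paired analysis was possible because the libraries form 1 group. For the TPM share of 9.00%, the second quantification gave 7.47%, annotated in place of effective length 4.91%, leaving out mt-Atp8 and the tRNA genes 4.89%, and adding nuclear copies 13.4%. The count share of 2.90% became 3.96% with copies. Single libraries gave 8.57% to 9.42% of TPM and 2.45% to 3.35% of counts. The number of genes at 1 TPM, 14, was 23 in the second quantification, where some tRNA genes passed on very few reads. It was 14 to 15 in single libraries. The median TPM of the 15 genes, 2920, was 5188 with copies and 2206 to 3634 in single libraries. The median log2 ratio of the 13 mRNA genes alone, mt-Co3 included, was -0.61. It was -0.43 with total counts, -0.36 from TPM, -0.55 in the second quantification, -0.68 without the filter and -1.75 with the GC and length trend removed. With copies it was -0.53, in the second quantification -0.55, and with the trend removed -1.65. It stayed below 0 in each of these. The 8 genes past 1.5-fold became 5 with total counts, 5 from TPM, 4 at 2-fold and 13 with the trend removed. With copies they became 4 with total counts, 1 at 2-fold and 14 with the trend removed. The share of all genes past the fold was not taken under these other settings, so these counts stand without a background. mt-Co3 reversed to 0.32 with copies, and mt-Nd3 to -0.13 with the trend removed. The log2 ratio of mt-Atp8 over mt-Atp6, 6.31 on average, was 3.12 per annotated length, 0.46 in the second quantification, 1.99 with copies, 0.46 with copies in the second quantification, and reversed to -1.18 with copies per annotated length. Single libraries gave 5.19 to 7.43. That of mt-Nd4l over mt-Nd4, -0.49, was -2.41 per annotated length, 0.86 in the second quantification, 0.60 with copies, -1.27 with copies per annotated length and 0.36 with copies in the second quantification. Single libraries gave -0.59 to -0.38, and for mt-Rnr2 over mt-Rnr1, on average 0.37, -0.02 to 0.76. Per annotated length mt-Rnr2 over mt-Rnr1 averaged 0.58. The sums of gene and copies were added to the settings after seeing the data.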

Other observations

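Copies of mitochondrial genes that differ at more bases took few reads. A segment of chromosome 2 holds Gm13340, a copy of mt-Co1 at 97.6% identity over 1545 bases, and Gm13341, a copy of mt-Co2 at 95.9% identity. Gm13340 was given 34.0 expected counts in replicate 1 and 96.1 in replicate 2, and Gm13341 4.09 and 24.2. Gm13339, a copy of part of mt-Nd2 at 96.7% identity in the same region, was given none in either library. In all, the 14 copies outside the chromosome 1 segment were 81.6% to 97.6% identical and held 38.1 counts in replicate 1 and 120 in replicate 2. These genes were chosen after their values were seen.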
